A study of Homo sapiens with 2 samples.

Results

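The genes described here are 48 genes of DNA replication, mitosis and the G1/S transition, taken as a list of names with no threshold on their values, although earlier results of these arrays were known when the list was made. Of the 48 symbols, 47 were found in the array annotation, out of 17280 genes named there, with 28 genes of replication, 13 of mitosis and 6 of G1/S control. They had 1166 probes, all of which passed the filters, 22 genes lying on the array chIP1 and 25 on chIP2. The symbol AURKA was not found, but the array lists the Aurora A kinase under its older name STK6, which is given beside the others and is not counted among them.

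In the study, chromatin from Meg-01, an untreated human cell line of megakaryocytic leukemia, was precipitated with an antibody to the GATA1 C-terminus (GATA1 C-20, the IP), GATA1 being a transcription factor. The same chromatin precipitated in parallel with normal goat IgG served as the background. The IP (Cy5) and IgG (Cy3) DNA were amplified and hybridized together to a set of 2 promoter arrays that carry different probes. Every gene was thus read once, without replicates or swapped dyes, and no p-value was computed.

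All values are log2(IP/IgG) with the median of each array at 0, so that 1 is 2-fold toward the IP. A window is the mean of 3 adjacent probes whose outer probes lie within 1000 bp of the center, and a window of at least 1 was called enriched (IP side), one of at most -1 IgG side. The value of a gene is its highest window unless another is named. The SD printed with a mean is the spread between neighboring probes, not an error between experiments. Raw mean signals were low on both arrays, with a median of 543 and 544 for the IP and of 412 and 440 for the IgG against 340 to 342 and 303 for negative control spots. The ratios use processed signals, in which negative controls had medians of 7.72 and 7.93 for the IP and of 24.7 and 19.5 for the IgG. Among 2392 control probes carried by both arrays and within the signal range of the genomic probes, the difference between the arrays had an SD of 0.17. The SD of all kept genomic probes was 0.97 on each array.

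Before a cell divides, the origin recognition complex, CDC6 and CDT1 load the MCM helicase on DNA, and the helicase is then switched on and followed by polymerases, the sliding clamp PCNA and its loader RFC. In mitosis, Aurora and polo-like kinases drive chromosome alignment, and the spindle checkpoint holds the cell back until every chromosome is attached. Megakaryocytes depart from this cycle in endomitosis, in which DNA is replicated again and again while mitosis is left before the cell divides, so that both groups of genes are at work in 1 nucleus that becomes polyploid. GATA1 is the factor that drives red cell and megakaryocyte maturation through GATA sequences in DNA.

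The median highest window was lower in genes of replication than in genes of mitosis and highest in G1/S genes, although all 3 groups overlapped widely. It was 0.93 in the 28 replication genes (0.09 to 2.02), 1.25 in the 13 mitosis genes (0.60 to 2.04) and 1.64 in the 6 G1/S genes (0.52 to 1.96). The difference between the mitosis and replication medians was 0.33. It was 0.16 after the trend of all probes on distance to the start was removed, and when all probes of a gene were averaged the medians were 0.14 and 0.14 and the difference was -0.0032. With the highest single probe of a gene in place of a window, the medians were 1.64 for replication and 1.70 for mitosis, a difference of 0.052. Replication and mitosis genes thus differed in their highest 3-probe window, but little in their highest single probe and hardly in the mean of all their probes. Within the arrays, the medians were 0.88 for replication and 1.25 for mitosis on chIP1, and 0.94 and 1.25 on chIP2, whereas the G1/S median was 1.76 over 3 genes on chIP1 and 0.84 over 3 on chIP2. A gene with more windows has more chances of a high one, and G1/S genes had a median of 32 windows, against 19.5 in replication and 20 in mitosis. With normexp background correction the G1/S median was 1.22, below the 1.23 of mitosis.

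An enriched window was found in 24 of the 47 genes (51.1%), against a background of 57.1 percent of the 17054 genes with a window. By group this was 12 of 28 replication genes, 8 of 13 mitosis genes and 4 of 6 G1/S genes. As reported, the share of enriched genes was therefore no higher than that of genes in general, but this depended on the processing. With loess it was also lower (51.1% against 58.4%), and with normexp it was higher (51.1% against 33.1%). On the IgG side the count as reported was lower, at 17 of 47 (36.2%) against 52.9 percent. In all, 9 genes had windows on both sides, where 31.3 percent of all genes did, and 15 had neither, where 21.3 percent of all genes had neither. The number of windows per gene was close to that of all genes, with medians of 22 and 23. Of the 1017 windows of these genes, 93 were enriched (9.14%, against 7.62 percent of all windows) and 60 were on the IgG side (5.90%, against 9.65 percent). The low share of IgG-side windows was seen on both arrays, with 9 of 22 genes on chIP1 against 55.5% of its genes and 8 of 25 on chIP2 against 50.5%.

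**Figure D1:**
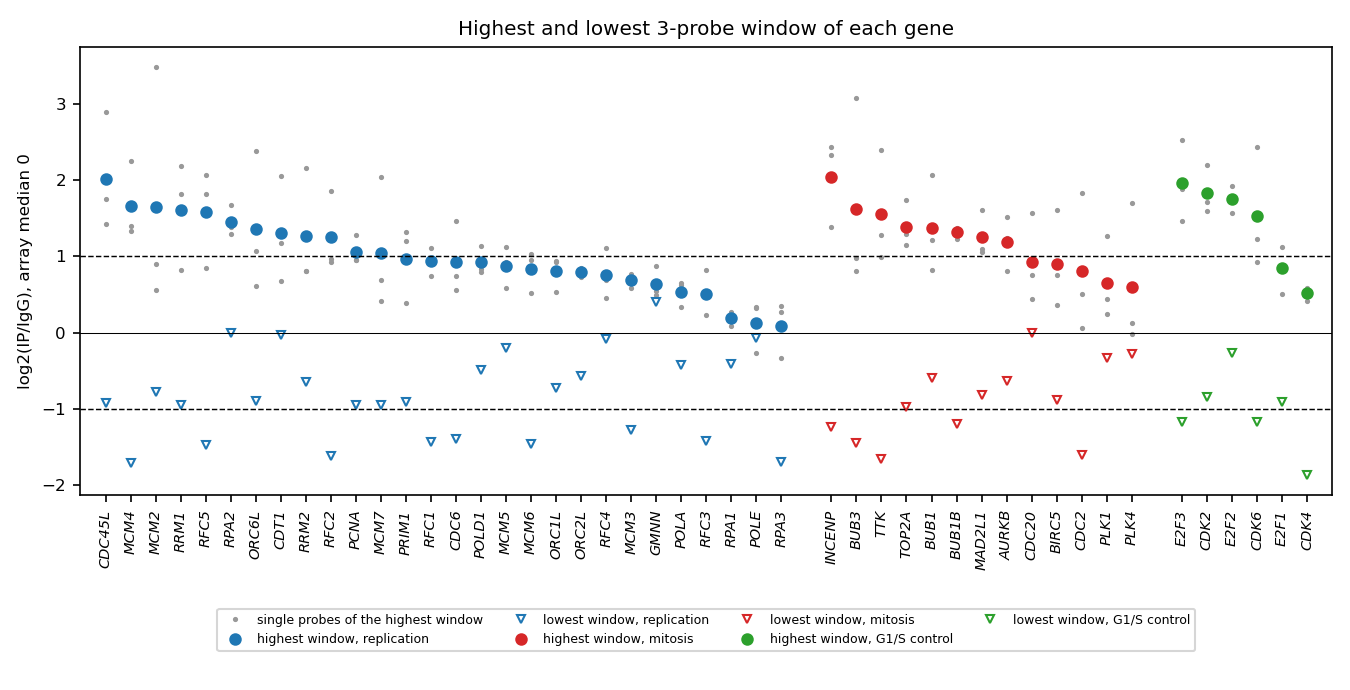
Highest window (filled circles) and lowest window (open triangles) of each of the 47 genes by group, as log2(IP/IgG), with the 3 single probes of the highest window as gray points and dashed lines at 1 and -1. The highest windows run from 0.09 in RPA3 to 2.04 in INCENP, 24 of them at or above 1, and the lowest windows of 17 genes lie at or below -1.

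The highest windows often lay at the start. In 15 of the 24 enriched genes (62.5%) the highest window was centered within 1000 bp of the annotated transcription start, while this held for 43.1% of all enriched genes. In the replication group it was 8 of 12, in mitosis 6 of 8, and in G1/S control 1 of 4. With only windows within 1000 bp of the start counted, 19 of 46 genes had an enriched one, against a background of 34.0 percent of 16619 genes, and 4 of 46 an IgG-side one, against 17.4 percent. The mitosis group had the larger share, 7 of 12 genes with a median of 1.22, the replication group 10 of 28 with a median of 0.92 and the G1/S group 2 of 6 with a median of 0.96, while the median over all genes was 0.78.

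The mean of all probes within 1000 bp of the start does not depend on picking a highest window, and it pointed the same way. It could be taken over at least 3 probes in 46 genes, all but INCENP, and its median was 0.47, against 0.22 over all 16446 genes measured so. It was above 0 in 40 of the 46 (87.0%), where the background was 70.2 percent. The medians were 0.47 for replication, 0.50 for mitosis and 0.39 for G1/S control, so that by this measure replication and mitosis genes differed by little. On chIP1 the median of the listed genes was 0.47 against 0.25 for all genes, and on chIP2 0.47 against 0.20. The probes near these starts were also brighter, at a median intensity percentile of 74.7 within their array against 60.6 for all genes. After loess removed the trend of the ratio on intensity, the median was 0.39 against 0.21. After the trend on distance was removed it was 0.27 against 0.04, with 34 of 46 genes above 0 where 53.9% of all genes were.

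**Figure D2:**
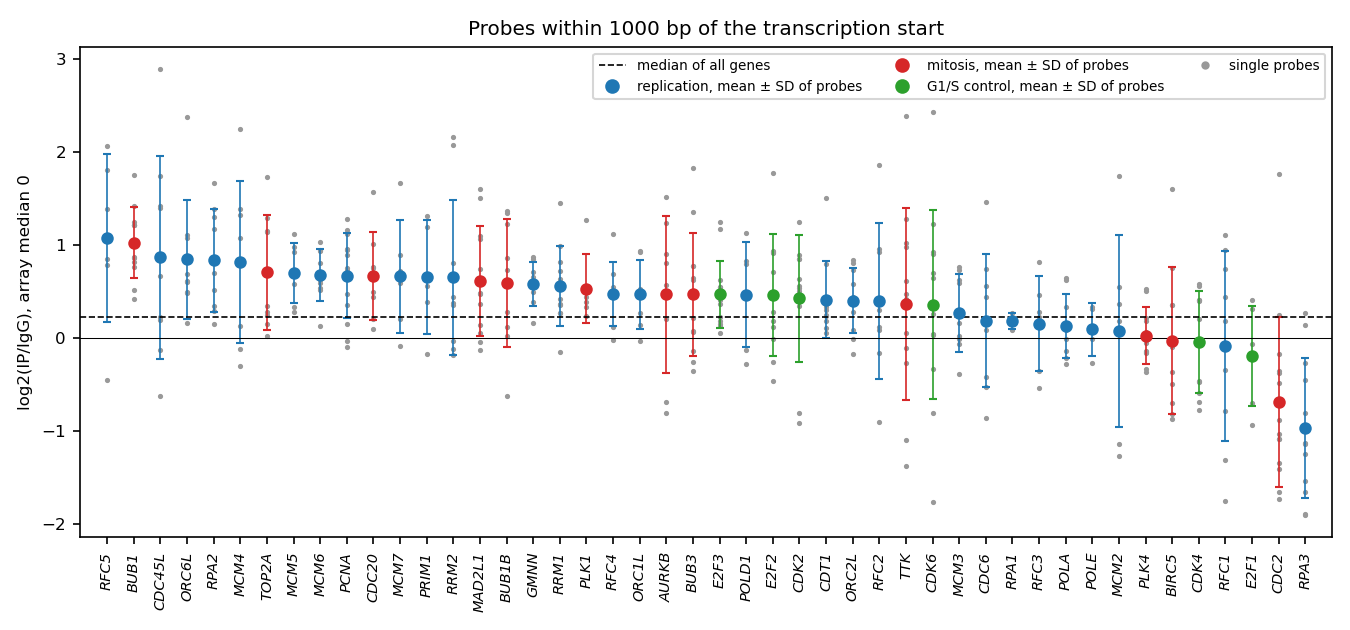
Probes within 1000 bp of the transcription start for the 46 genes with at least 3 of them, ordered by their mean, with the mean and SD of the probes colored by group, single probes in gray, and log2(IP/IgG) on the y axis. The means run from 1.08 in RFC5 to -0.97 in RPA3, and 40 lie above 0, while the dashed line gives the median of all genes, 0.22.

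Along the promoter, both lists lay above all genes around the start. From 500 bp upstream to the start, the mean of the gene means was 0.67 ± 0.39 (SD between 27 genes) for replication, 0.70 ± 0.53 (12 genes) for mitosis and 0.40 ± 0.59 (6 genes) for G1/S control, with 0.28 ± 0.73 over all genes. In the first 500 bp after the start it was 0.46 ± 0.53, 0.60 ± 0.63 and 0.48 ± 0.30, against 0.25 for all genes. From 500 to 1000 bp after the start it was 0.26 ± 0.67 for replication and -0.04 ± 0.71 for mitosis, where all genes had 0.08. Away from the start, the replication list had a higher mean still from 2000 to 1500 bp upstream, 0.78 ± 0.96 over 10 genes and 18 probes, where mitosis had -0.32 ± 0.70 over 8 genes and all genes -0.12. The SD between genes was as large as the distance to the all-gene mean in most of these steps, so that single genes of each group lay on both sides of it.

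**Figure D3:**
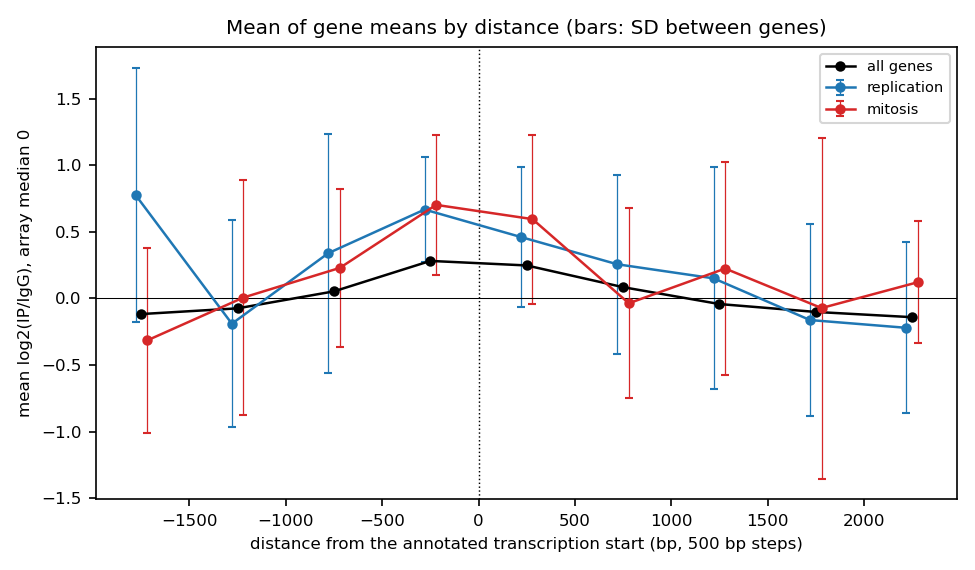
Mean of the gene means of log2(IP/IgG) in steps of 500 bp by distance to the transcription start for replication genes (blue), mitosis genes (red) and all genes (black), with bars for the SD between genes of each list. In the step just upstream of the start the lists have 0.67 and 0.70 and all genes 0.28, and the highest step of the replication list, 0.78 over 10 genes, is the one from 2000 to 1500 bp upstream.

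The promoter sequences of RefSeq allow known cell cycle motifs to be counted. The 250 bases upstream of the RefSeq start (GRCh38.p14) are printed, to show these motifs, for the 5 genes with the highest mean near the start among those with a promoter in the table, in the direction of the gene. Capitals mark every match on either strand to the motifs searched. In these stretches the matches are CCAAT, or ATTGG when read on the other strand, and in TOP2A also TTTGAA or its complement TTCAAA. RFC5 lies at chr12:118016453-118016702 (plus strand), BUB1 at chr2:110678064-110678313 (minus), CDC45L, now CDC45, at chr22:19479670-19479919 (plus), ORC6L, now ORC6, at chr16:46689409-46689658 (plus) and TOP2A at chr17:40417897-40418146 (minus).
RFC5: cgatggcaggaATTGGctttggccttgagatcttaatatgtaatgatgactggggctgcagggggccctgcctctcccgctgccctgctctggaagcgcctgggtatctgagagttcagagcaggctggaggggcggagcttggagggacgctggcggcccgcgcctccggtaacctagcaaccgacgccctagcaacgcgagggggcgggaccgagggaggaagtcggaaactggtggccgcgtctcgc
BUB1: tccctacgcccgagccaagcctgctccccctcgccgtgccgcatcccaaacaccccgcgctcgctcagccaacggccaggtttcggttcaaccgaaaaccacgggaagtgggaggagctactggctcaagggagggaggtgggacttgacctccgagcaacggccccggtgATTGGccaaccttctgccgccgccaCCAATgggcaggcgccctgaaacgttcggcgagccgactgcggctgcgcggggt
CDC45L: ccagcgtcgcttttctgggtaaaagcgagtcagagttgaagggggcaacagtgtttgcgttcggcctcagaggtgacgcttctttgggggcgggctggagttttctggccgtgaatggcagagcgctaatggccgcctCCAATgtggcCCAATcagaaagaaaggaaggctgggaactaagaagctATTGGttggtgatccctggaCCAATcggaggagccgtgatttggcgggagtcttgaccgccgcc
ORC6L: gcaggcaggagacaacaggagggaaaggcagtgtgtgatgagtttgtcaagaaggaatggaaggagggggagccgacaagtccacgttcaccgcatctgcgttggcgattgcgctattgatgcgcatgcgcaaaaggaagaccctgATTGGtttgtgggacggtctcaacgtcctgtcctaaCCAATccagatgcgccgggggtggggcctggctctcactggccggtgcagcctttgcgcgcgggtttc
TOP2A: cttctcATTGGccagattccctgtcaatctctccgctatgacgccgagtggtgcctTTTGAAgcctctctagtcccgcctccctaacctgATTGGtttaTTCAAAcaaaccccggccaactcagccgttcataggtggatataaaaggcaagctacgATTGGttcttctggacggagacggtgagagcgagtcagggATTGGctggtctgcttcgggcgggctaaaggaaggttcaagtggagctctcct

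A promoter of 250 bases before to 50 after the start was matched for 39 of the 48 genes. MCM4, MCM5, RPA2, RPA3, AURKA, BIRC5, BUB3, TTK and CDK2 were not matched. The E2F, homology region, CCAAT and GATA motifs were searched on both strands, and none of the spellings of one motif lies inside a spelling of another. The E2F motif, which E2F factors bind to switch on S phase genes, was spelled TTTCCCGC, TTTCGCGC, TTTGCCGC or TTTGGCGC. It was held by 10 of 24 replication promoters and 3 of 5 G1/S promoters, but by 1 of 10 mitosis promoters (CDC2), and by 4.44% of 15843 promoters of protein-coding genes. The reverse was seen for the cell cycle genes homology region, spelled TTTGAA or TTCGAA, which is known for restricting mitotic genes to late cell cycle phases. It was held by 9 of 10 mitosis promoters and 2 of 24 replication promoters, against 13.5% of all. CCAAT, the box bound by NF-Y, was held by 27 of 39 (69.2%), against 36.4% of all. The replication and mitosis lists thus differed in matches to the E2F and homology region spellings searched. E2F spellings with another last letter were not counted, such as tttggcgg in the CDC45L stretch printed above.

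The GATA motif, spelled AGATAA or TGATAA, or with G as its last letter AGATAG or TGATAG, was rare in these promoters. It was held by 3 of 39 (7.69%), against 19.7% of all promoters. These were RFC3, CDC20 and CDK4, whose means near the start were 0.15, 0.67 and -0.04. None of the 5 promoters printed above holds it in its 300 bases. Median GC content was 63.3% in the 39 promoters and 62.7% in all. Promoters with a match to the E2F spellings searched had a median near the start of 0.23 over 14 genes. Those without had 0.55 over 24 genes. For the homology region the medians were 0.59 over 11 and 0.41 over 27, INCENP having no probes there.

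Among the origin and licensing genes, CDC45L had the highest window of all 28 replication genes. CDC45L encodes a subunit that joins the MCM ring to make the active helicase. Its window measured 2.02 over probes of 1.75, 2.89 and 1.42, centered 527 bp upstream of the start at chr22:17841303-17841688 by the array annotation. The genome build of the array coordinates is not given in the sources used here, and they cannot be set beside the GRCh38.p14 positions. The window lies in the promoter shared with UFD1L, a gene of protein degradation read in the opposite direction, so the arrays do not tell to which of them it belongs. All 3 probes were enriched, and the 9 probes near the start had a mean of 0.87 ± 1.09.

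The origin recognition complex was uneven in its 3 members. ORC6L, its smallest subunit, had a window of 1.35 at 568 bp into the gene, from probes of 1.08, 0.61 and 2.38, and a mean near the start of 0.85 ± 0.64 over 9 probes. ORC1L and ORC2L, the subunits at the core of the complex, had 0.80 and 0.80, no enriched window and no IgG-side window. The probes of both lay among the brightest, at intensity percentiles of 97.0 and 90.1.

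CDT1, which brings the helicase to origins, had an enriched window of 1.30 at 1435 bp upstream, in 4 of its 31 windows. CDC6, its partner in loading, reached 0.92 at 70 bp into the gene and had 4 IgG-side windows, the lowest of -1.40 at 3241 bp upstream. GMNN encodes geminin, the inhibitor of CDT1. Its 6 windows ran from 0.40 to 0.64, which made it the only gene of the 47 with its lowest window above 0, and it had a mean near the start of 0.58 ± 0.24 over 8 probes.

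Of the 6 genes of the MCM2 to MCM7 helicase ring, 3 had an enriched window, where 57.1 percent of all genes had one. Of these 3, only the window of MCM4 lay at the start. The MCM4 window measured 1.65, from probes of 2.25, 1.33 and 1.39 at 135 bp upstream, in the promoter it shares with PRKDC, a DNA repair kinase. Further into the gene, at 3479 bp, the same gene had its lowest window at -1.71, so that it moved across the whole scale within a few kb. MCM2 had 1.65 at 8580 bp upstream, in a window shared with GPR175 and carried by 1 probe, since its probes were 0.56, 3.48 and 0.90. Near its own start MCM2 had a mean of 0.07 ± 1.03 over 7 probes. MCM7 had its only enriched window, 1.05, again with 1 high probe among 0.42, 2.04 and 0.69. The probe of 2.04 is not annotated to MCM7, whose highest own probe was 1.67. The distance of the window, 7255 bp into the gene, is that of a neighboring probe in it.

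MCM3, MCM5 and MCM6 had no enriched window, at 0.70, 0.88 and 0.83. MCM5 and MCM6 nevertheless belonged to the steadier promoters of the list. The 9 probes of MCM6 near the start had a mean of 0.68 ± 0.28 and the 7 probes of MCM5 one of 0.70 ± 0.32, every probe above 0 in both. MCM3 had 0.27 ± 0.42 over 9 probes and 2 IgG-side windows, the lowest of -1.28 at 1204 bp into the gene. MCM6 had 6 IgG-side windows, the lowest of -1.46 far inside the gene at 36132 bp.

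PCNA, the ring that holds polymerases on DNA, and the loader genes RFC1 to RFC5 held enriched windows in 3 of 6 and IgG-side windows in 4 of 6. The shares over all genes were 57.1 and 52.9 percent. RFC5 had the highest mean near the start of all genes of the list, 1.08 ± 0.90 over 6 probes, at percentile 98.0 among genes of the same array. Its highest window was 1.58, from probes of 2.07, 0.85 and 1.81 at 281 bp into the gene, and its lowest was -1.47 at 1167 bp upstream. The values crossed from the IgG side to the IP side between these positions. RFC2 did the same on a smaller scale, with 1.25 at 244 bp upstream, from probes of 0.92, 1.86 and 0.96, and -1.62 at 2155 bp upstream. PCNA had 1.06 at 47 bp upstream, from 3 even probes of 0.96, 1.28 and 0.95, and a mean near the start of 0.67 ± 0.46 over 13 probes.

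RFC1, RFC3 and RFC4 had no enriched window, at 0.93, 0.51 and 0.75. RFC1, the large subunit of the loader, had 6 of 13 windows on the IgG side, the lowest of -1.43 at 1928 bp into the gene, and a mean near the start of -0.08 ± 1.02 over 9 probes.

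Of the polymerase and primase genes, 0 of 4 were enriched and 0 of 4 were on the IgG side, with a median of 10.5 windows per gene, where 21.3 percent of all genes had neither. PRIM1, which makes the RNA primers, came closest at 0.97, just under the threshold, and POLD1, the catalytic subunit of polymerase delta, had 0.92. POLA, the catalytic subunit of polymerase alpha, had 0.54, and POLE, that of polymerase epsilon, 0.13 in a window shared with PXMP2, over just 4 windows.

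The single-strand binding protein RPA was divided among its 3 subunits. RPA2 had 1.45 at 62 bp upstream, from even probes of 1.30, 1.67 and 1.39, and these probes were among the brightest of chIP1, at intensity percentile 98.1. RPA1 had 0.19, in a window shared with SMYD4. RPA3 had the lowest highest window of the list, 0.09, and 10 of its 20 windows were on the IgG side. The lowest of these was -1.69 at 507 bp into the gene, from probes of -1.65, -1.53 and -1.89, and the 12 probes near the start had a mean of -0.97 ± 0.75. The RPA3 probes were dim, at intensity percentile 10.5 near the start, where those of RPA2 were at 94.5, and the part of intensity in this difference was not tested. In the lowest window of RPA3 the processed signals were 63.4 to 101 for the IP and 236 to 292 for the IgG, where negative controls of the array had medians of 7.72 and 24.7.

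Both genes of ribonucleotide reductase, the enzyme that makes deoxynucleotides, had an enriched window and neither had one on the IgG side. Of all genes, 57.1 percent had an enriched window and 52.9 percent an IgG-side one. RRM1, the large subunit, had 1.60 at 1106 bp into the gene, from probes of 0.81, 1.81 and 2.18. RRM2, the small subunit made in S phase, had 1.26 at 759 bp into the gene, from probes of 0.81, 2.16 and 0.81, with 6 of 24 windows enriched. Their means near the start were 0.56 ± 0.43 over 11 probes and 0.65 ± 0.84 over 10.

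Of the spindle checkpoint genes, 5 of 6 had an enriched window, beside the 57.1 percent of all genes. BUB1, the checkpoint kinase at the kinetochore, had 7 of 19 windows enriched and a mean near the start of 1.03 ± 0.38 over 12 probes, every one of them above 0 (0.43 to 1.76). This was the second highest mean of the list and rested on more probes with a smaller spread than that of RFC5. Its highest window was 1.37 at 969 bp into the gene, from probes of 2.06, 0.82 and 1.22, at chr2:111150770-111151089 by the array annotation.

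BUB1B, which encodes the checkpoint protein BubR1, had 1.32 at 262 bp upstream from the even probes 1.37, 1.23 and 1.35. BUB3, the partner of both kinases, had the highest window of the group, 1.62, but at 1532 bp into the gene and carried mostly by 1 probe among 0.80, 0.98 and 3.08. BUB3 also had 5 IgG-side windows, the lowest of -1.45 at 1378 bp upstream. MAD2L1, which holds back the anaphase-promoting complex, had 1.25 at 214 bp upstream from probes of 1.06, 1.10 and 1.61.

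TTK, the kinase at the head of the checkpoint, had 1.55 at 92 bp into the gene, from probes of 0.99, 1.29 and 2.39. TTK is also among the genes the study chose on these arrays, so its value is not independent of that choice. It had its lowest window of -1.65 at 1710 bp into the gene. CDC20, the target of the checkpoint and activator of the anaphase-promoting complex, was the only gene of the 6 without an enriched window, at 0.92 from probes of 0.75, 1.57 and 0.45, and its 8 probes near the start had a mean of 0.67 ± 0.47.

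**Figure D4:**
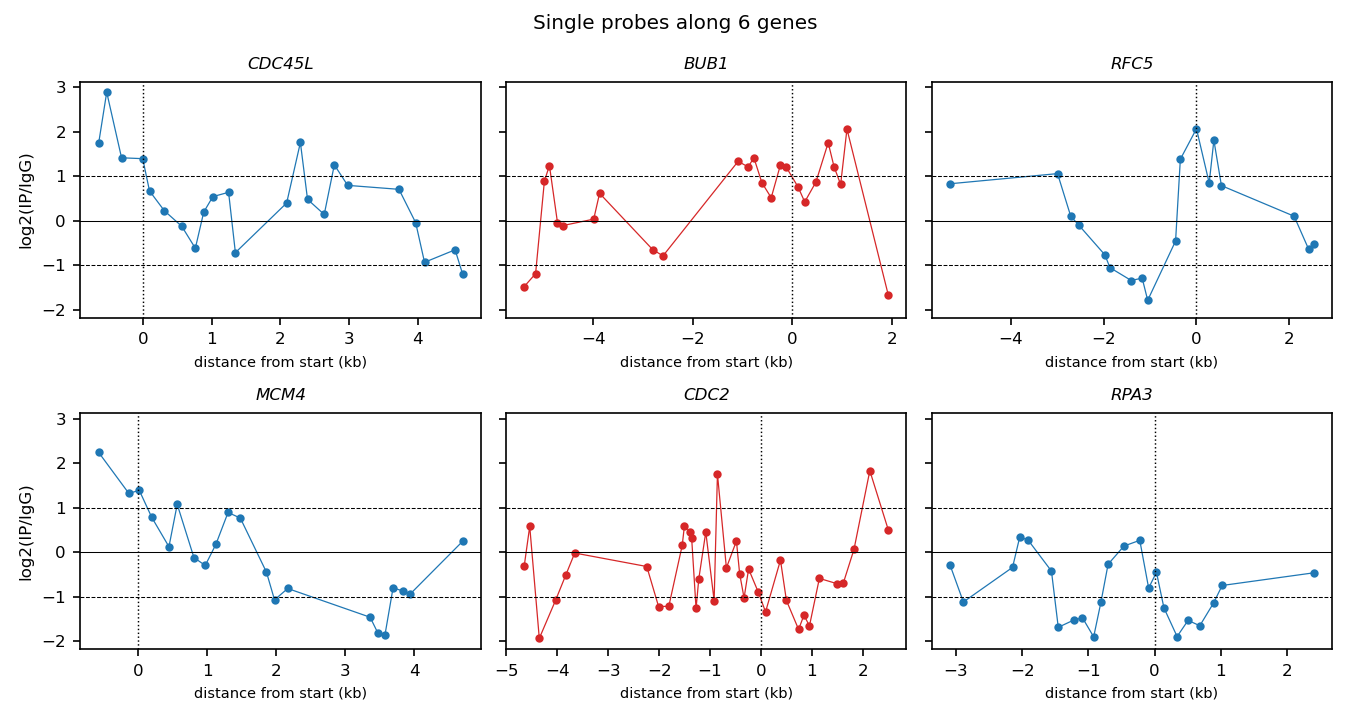
Single probes of log2(IP/IgG) within 6 kb of the transcription start (dotted line) for CDC45L, BUB1, RFC5, MCM4, CDC2 and RPA3, against distance in kb, with dashed lines at 1 and -1. The 12 probes of BUB1 near the start are all above 0, those of CDC45L, RFC5 and MCM4 are highest close to the start, and CDC2 and RPA3 have means of -0.68 and -0.97 there.

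Of the chromosomal passenger complex, which corrects faulty attachments, INCENP and AURKB had an enriched window, beside the 57.1 percent of all genes. INCENP, the scaffold of the complex, had the highest window of all 47 genes, 2.04 from probes of 1.38, 2.43 and 2.32, at chr11:61647682-61648003, centered 4344 bp upstream. The array had no INCENP probe within 1000 bp of the annotated start, the nearest lying 2009 bp away, and an IgG-side window of -1.23 lay at 2764 bp upstream. AURKB, its kinase, had 1.19 at 32 bp into the gene, from probes of 0.81, 1.52 and 1.24. BIRC5, which encodes survivin, had 0.91 at 179 bp into the gene and a mean near the start of -0.02 ± 0.79 over 10 probes. The Aurora A kinase, listed as STK6, had 1.18 from probes of 1.13, 1.31 and 1.09, in a window shared with CSTF1.

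The polo-like kinases had no window on either side, where 21.3 percent of all genes had neither. PLK1, which acts throughout mitosis, had 0.65, and PLK4, which starts centriole duplication, had the lowest value of the mitosis group, 0.60. TOP2A, the topoisomerase that untangles sister chromatids, had 1.39 at 14 bp into the gene, from probes of 1.15, 1.73 and 1.29, all enriched, and all 9 probes near its start were above 0 (mean 0.71 ± 0.62).

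CDC2, now CDK1, the kinase that starts mitosis, had mostly lower values. Its highest window was 0.80, at 2138 bp into the gene, and it had 4 windows on the IgG side, the lowest of -1.60 at 845 bp from probes of -1.73, -1.41 and -1.66. The 14 probes near its start had a mean of -0.68 ± 0.91, percentile 4.93 of its array. These probes were dim as well, at intensity percentile 27.9 near the start and 6.61 in the lowest window, and the part of intensity was not tested. The processed signals in that window were 17.0 to 148 for the IP and 53.4 to 391 for the IgG, where negative controls had medians of 7.93 and 19.5.

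The G1/S genes had high windows, but most of them away from the start. E2F3 had 1.96 from probes of 2.53, 1.88 and 1.46 at 2302 bp upstream, E2F2 1.76 from probes of 1.78, 1.57 and 1.92 at 1402 bp into the gene, and E2F1 had no enriched window at 0.84. E2F2 and E2F3, like E2F1, encode activators of S phase genes. All 3 probes of the windows of E2F2 and E2F3 were enriched, and E2F2 had 7 of 21 windows enriched and none on the IgG side. E2F1 had a mean near the start of -0.19 ± 0.54 over 6 probes.

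CDK2, the kinase of S phase entry, had 1.83 from probes of 1.60, 1.71 and 2.19, again all enriched, at 4981 bp into the gene. CDK6, a G1 kinase and partner of D cyclins, had 1.53 at 156 bp upstream, from probes of 1.23, 2.43 and 0.92, with 7 windows enriched and 3 on the IgG side of 49. CDK4, the other partner of D cyclins, had the lowest value of the group, 0.52, and 4 IgG-side windows. The lowest of all windows of the list was in CDK4, -1.86 at 2369 bp upstream from probes of -2.29, -1.74 and -1.54, in a stretch shared with MARCH9, and its probes were bright, at intensity percentile 83.7.

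The probes and windows of the enriched genes were also counted. All 3 probes of the highest window were above 0 in 24 of 24 genes and all 3 were at least 2-fold in 10. These windows were picked for a high mean, so the counts are in part given by that choice. Their shares over all genes were not computed. Every probe in the highest and lowest windows of the 47 genes was well above background in both channels. At least 2 enriched windows were found in 23 of the 24 genes, the exception being MCM7. Adjacent windows share probes, so 1 high probe can lift several of them. None of the 24 highest windows lay under the 25th intensity percentile, where 27.3% of those of all enriched genes did, and 18 were at or above the 50th. Just below the threshold lay PRIM1 at 0.97, RFC1 at 0.93, CDC6, CDC20 and POLD1 at 0.92 and BIRC5 at 0.91, and just above it MCM7 at 1.05 and PCNA at 1.06. These neighbors differed by less than the SD of 0.17 seen between the arrays for single control probes, so the line of 24 genes is not a sharp one.

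How these counts compare with the background depended on the measure. The enriched share lay below that of all genes as reported and with loess (51.1% against 58.4%) and the series value table (57.0%). So it did without a filter (57.1%), with the filter on both channels (56.0%) and at 3-fold (19.1% against 20.6%). It was also lower with the distance trend removed (44.7% against 55.0%) and with shared windows left out (44.7% against 52.6%). With windows of 5 probes, 22 of 47 genes were enriched (46.8%) where 34.9% of all genes were. With normexp background correction, which damps the ratios of dim probes, the count was again 24, while the share of all genes was 33.1%, but MCM2 and MCM7 were no longer enriched, at 0.91 and 0.94, and CDC6 and POLD1 were, at 1.07 and 1.02. On the IgG side, the list had a lower share than all genes under each of the settings plotted. In 18 of the 24 genes the highest window stayed at least 2-fold under 6 settings (loess, normexp, the series value table, the filter on both channels, 5-probe windows and removal of the distance trend). MCM2, MCM7, PCNA, RFC2, AURKB and MAD2L1 fell below 2-fold in at least 1 of them. With shared windows left out, CDC45L had 0.92 and MCM4 0.77, and with only windows near the start CDK2 had 0.9998 and E2F3 0.91. Over these 8 settings together, 14 of the 24 stayed enriched, INCENP among them without a window near its start. The shares of all enriched genes that stayed so over the 6 or the 8 settings were not computed.

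**Figure D5:**
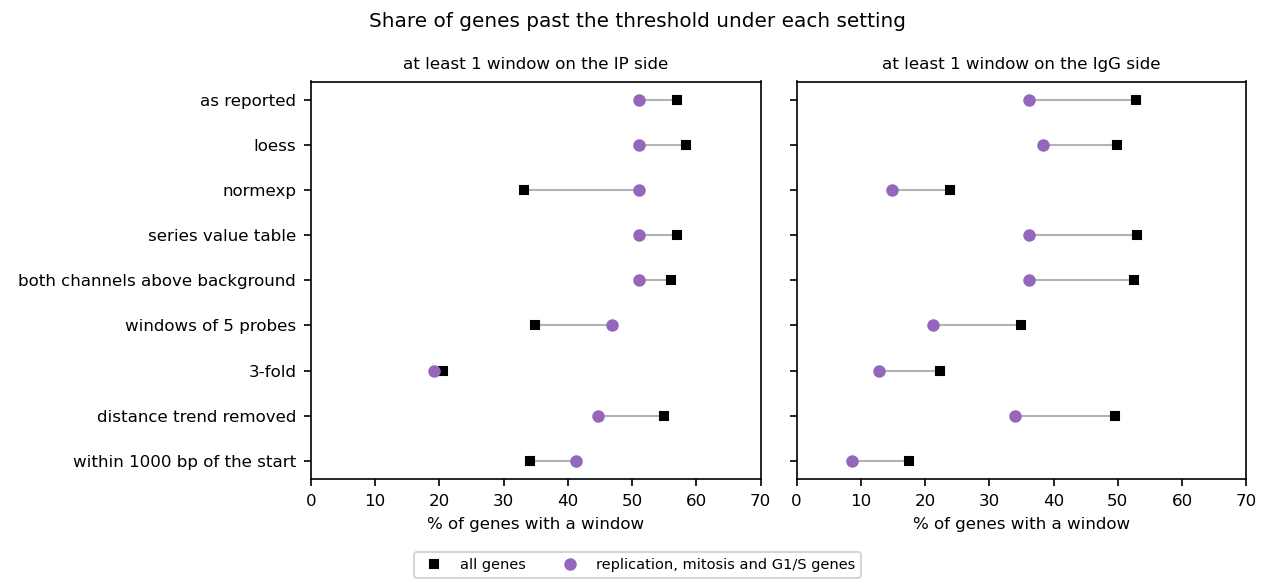
Percentage of genes with a window of at least the threshold toward the IP (left) and toward the IgG (right) for the listed genes (purple circles) and all genes (black squares), with a row for each of the settings shown. On the IP side the listed genes lie below all genes as reported, 51.1% against 57.1%. They also lie below with loess, the series value table, the filter on both channels, 3-fold and removal of the distance trend. They lie above all genes with normexp (33.1%), with 5-probe windows (34.9%) and near the start (34.0%). With single probes and at 1.5-fold, not drawn, they also lie above, at 91.5% against 86.1% and 87.2% against 85.0%, while on the IgG side they lie below all genes in every row drawn.

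Other genes of the same pathways, from lists of names, are given for comparison. Of 36 further replication genes, 30 were found, 13 of them enriched (43.3%) and 11 on the IgG side, with a median highest window of 0.94. Of 52 further mitosis genes, 51 were found, 33 of them enriched (64.7%) and 29 on the IgG side, with a median of 1.26. CENPE and CENPJ among them are genes that the study chose on these arrays. Both medians were close to those of the listed replication and mitosis genes, 0.93 and 1.25, but the share of further mitosis genes on the IgG side, 56.9%, was not low. Among the enriched further genes, the highest window lay within 1000 bp of the start in 12 of 13 for replication (92.3%). For mitosis it did so in 16 of 33 (48.5%), where 43.1% of all enriched genes had it there. The highest replication genes were CHAF1A, a chromatin assembly subunit, at 2.33, POLA2, the second subunit of polymerase alpha, at 2.07 and TOPBP1, a checkpoint and initiation factor, at 2.01, centered at 513, -81 and -843 bp from the start. The highest mitosis genes were MAD1L1, the partner of MAD2L1, with a measured 2.97, WEE1, the kinase that holds CDC2 inactive, at 2.38 and KIF4A, a chromosome motor, at 2.22, and these lay away from the start, at 2857, -4300 and 129836 bp. The window of MAD1L1 held 1 probe, of 5.26, whose IgG signal was not well above background, so its value is not exact. The windows of WEE1 and KIF4A were dim, at intensity percentiles of 16.6 and 16.6. Means near the start were above 0 in 26 of 29 further replication genes and 44 of 51 further mitosis genes, with medians of 0.40 and 0.40.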

How the data were processed

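The authors deposited the scanner output of both arrays, with intensities extracted, per the file headers, by Agilent Feature Extraction 9.5.3.1 under a ChIP protocol. The processed intensities they deposited were spatially detrended and dye-normalized with a linear factor, without local background subtraction. The deposited mean and background intensities were uncorrected. The deposited log10 ratio (Cy5 over Cy3) equals the series value table. The lowess, median scaling and peak calling of the study were not used here.

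Here, log2 of the processed IP over IgG intensity was set to a median of 0 per array. Probes had to be uniform spots, other than controls, and well above background in at least 1 channel (237004 of 237210 and 236864 of 237201 probes kept). Genes were assigned by symbol in the array annotation, and shared promoters counted for each gene. A window counted for a gene if at least 1 of its probes carried the symbol. The means near a start needed at least 3 probes. All 48 genes could be named, with single probes for the 3 highest of each list and for enriched windows near a start, the lowest gene of each list, and the 3 highest further genes of each pathway. The genes, lists and measures were chosen with earlier results of these data known. Promoters came from RefSeq, with 1 per gene, matched by the RefSeq accession that the array annotation gave with its symbol.

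The alternatives were loess, normexp (offset 50, limma 3.58.1 in R 4.3.3), the series value table, no filter and a filter on both channels, single probes, 5-probe windows, 1.5-fold and 3-fold thresholds, removal of the distance trend, no shared windows, windows near the start, TOP2A moved to replication, and the mean of all probes. The means near the start were recomputed under settings added after the data were seen. The window code (Python 3.11.15, numpy 2.4.6, pandas 2.3.3) was tested on simulated data. The depth of an array is unknown as a count, and the number of arrays, 1 per gene, limits the precision.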

Additional observations from a re-analysis of the deposited data

How the results depend on the processing

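A gene's highest window was set beside its value under an alternative in 563 comparisons, and no enriched gene fell below 0. Such a change was counted only for the 24 genes enriched as reported. The 1.5-fold and 3-fold settings kept the values and moved only the threshold, and the highest single probe of a gene is picked upward. The absence of a change in direction therefore says little about stability. RPA3 went to -0.33 with normexp and -0.22 with 5-probe windows, and POLE to -0.11 with the distance trend removed. Of the 563, 492 kept their side of the threshold, while 31 fell below it and 40 passed it. At 3-fold 15 fell, while 17 passed at 1.5-fold and 19 with single probes. The count of enriched genes, 24 as reported, stayed within 21 to 24 under loess, normexp, the series value table, both filters, 5-probe windows, removal of the distance trend and exclusion of shared windows, and was 19 near the start. It was 43 with single probes (background 86.1%), 41 at 1.5-fold (85.0%) and 9 at 3-fold (20.6%). The count of genes with an IgG-side window, 17 as reported, was 7 with normexp (23.9%), 37 with single probes (81.1%), 10 with 5-probe windows (34.9%), 33 at 1.5-fold (78.4%), 6 at 3-fold (22.3%) and 4 near the start (17.4%). The difference between the mitosis and replication medians, 0.33, was 0.052 with single probes, -0.0032 with the mean of all probes, where it turned direction, and 0.16 to 0.35 under the other settings. The cause was not tested. The median of the means near the start, 0.47, was 0.27 with the distance trend removed, a setting added after the data were seen. No paired analysis was possible because the 2 arrays share no genomic probe and no test over samples exists. With 1 hybridization per gene and median raw signals not far above the negative controls, an enriched window here is 1 measurement. The spread between neighboring probes includes differences in probe response.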
